A study of Homo sapiens with 4 samples.

Results

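The RNAs described here are the transcripts of the human mitochondrial genome, measured by RNA-seq in VCaP cells after transfection with an siRNA against ZBTB7A (siZBTB7A) or a non-targeting control siRNA (siNTC). All 37 genes whose GENCODE symbols start with MT- and that lie on the mitochondrial chromosome were taken, of 60308 gene identifiers in each table. They comprise 13 mRNAs, 2 rRNAs and 22 tRNAs. The genes were picked by name and not by value, but with a larger mitochondrial read share in siZBTB7A already known. Their comparison between the groups is therefore a description with counting intervals. Calls from an edgeR fit over all genes are counted beside it, and they set 1 library against another, so they do not test the conditions.

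VCaP is an established human prostate cancer cell line, and ZBTB7A encodes a zinc finger transcriptional repressor. Cells of both groups were grown with 10% fetal bovine serum in DMEM, and no other treatment is given in the labels. Each group had 2 tables of read counts, numbered 1 and 2, and the labels do not say whether these came from separate cultures. Total RNA was the input of a kit that keeps the strand of each read.

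The mitochondrial genome is a small circle transcribed from both strands into long precursor RNAs. Most genes are read from the heavy strand as template, and tRNAs lying between the other genes are cut out of the precursor to release rRNAs and mRNAs. The mRNAs encode core subunits of respiratory complexes I, III and IV and of ATP synthase (complex V), whose other subunits are made from nuclear genes. In the annotation 12 of the mRNAs, both rRNAs and 14 tRNAs have the heavy strand as template, while MT-ND6 and 8 tRNAs have the light strand.

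Reads on the main strand of annotated genes numbered 5556061 and 5745862 in the siZBTB7A tables and 5737738 and 5927656 in the siNTC tables. The tables of a group differed by no more than read sampling over all genes (chi-square per degree of freedom 0.995 in siZBTB7A and 0.993 in siNTC, against 3.50 to 3.64 between groups). Over the 16 mitochondrial genes with enough reads it was 0.737 in siZBTB7A and 1.67 in siNTC (chi-square p = 0.748 and p = 0.0498), against 69.0 to 77.8 between groups. The tables of a group were therefore counted as 1 library, and no difference below has a replicate check. The targeted gene, ZBTB7A, had 70 and 74 reads in the siZBTB7A tables and 90 and 115 in the siNTC tables, a fold of 0.743 (95% counting interval 0.597 to 0.924, counting error only). edgeR's test between the libraries did not call it. All 7 luminal prostate markers examined were expressed, KLK3 with 293 to 314 reads in the siZBTB7A tables and 283 to 297 in the siNTC tables. All 7 had folds above 1 (median 1.108), and edgeR called 4 of them higher and 0 lower, where it called 2.25% of all tested genes higher. The part of this in the mitochondrial result was not tested. The 11 matched markers of leukocytes, endothelium and fibroblasts summed to 16.2 and 17.8 CPM in siZBTB7A and 19.3 and 16.8 CPM in siNTC, mostly LUM, and CD3E, LYZ, CDH5 and COL1A2 had no read.

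Mitochondrial genes took 20.2% of gene reads in both siZBTB7A tables and 17.1% in both siNTC tables. The rRNAs made up nearly all of this, with 19.7% and 16.7% of gene reads, and the mRNAs held 0.518% and 0.437%. Scaled as CPM (reads per 1000000 gene reads, with TMM-adjusted totals), the 13 mRNAs summed to 5247 CPM in siZBTB7A and 4317 CPM in siNTC, a fold of 1.22 (1.20 to 1.23). The rRNAs summed to 199493 and 164436 CPM, a fold of 1.213 (1.211 to 1.216). The number of rRNA reads per mRNA read was 38.0 and 38.1 in the siZBTB7A tables and 38.0 and 38.2 in the siNTC tables. The ratio of the group values was 0.998 (0.986 to 1.01). Most of each sum comes from few genes, in siZBTB7A 186580 CPM from MT-RNR2 and 4553 CPM from the complex IV mRNAs. This ratio therefore does not describe the other genes, whose folds differed. A bulk library cannot tell more mitochondrial RNA per cell apart from more cells rich in it. Shares and CPM are relative, so they cannot tell either apart from less counted RNA of other genes. Beside this, multi-mapping reads, which enter no gene count, took 22.2% to 22.3% of the siZBTB7A tables and 24.4% to 24.5% of the siNTC tables. Reads that met no annotated exon on the main strand took 23.1% to 23.2% and 20.6%. The part of both kinds of read in the result was not tested.

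Of the 37 genes, 16 had at least 50 reads over the 4 tables (all mRNAs, both rRNAs and MT-TI) and the same 16 passed edgeR's low-count filter. With edgeR's quasi-likelihood test between the libraries (Benjamini-Hochberg adjusted p under 0.05), 8 of them were called higher in siZBTB7A and 0 lower, where 2.25% of all 12848 tested genes were called higher and 2.72% lower (4.97%, or 639, in all). The 8 were MT-RNR1, MT-RNR2, MT-CO1, MT-CO2, MT-CO3, MT-CYB, MT-ATP6 and MT-ND3. Calls depend on read number as well as fold. MT-ATP6 had the fewest reads of the 8, at 1074, and MT-RNR1, with 291725, was called at a fold of 1.033. The share called among genes with similar read numbers was not computed. Leaving out 1 table, the whole-table count was 346 without siZBTB7A 1, 303 without siZBTB7A 2, 373 without siNTC 1 and 353 without siNTC 2, and 6 to 8 mitochondrial genes were called. MT-RNR2 was no longer called without siZBTB7A 1, siNTC 1 or siNTC 2, nor MT-ATP6 without siZBTB7A 1 or siNTC 1. The median fold was 1.19 over the 16 members and 1.001 over all tested genes. A fold of at least 1.1 was reached upward by 9 of the 16 and downward by 2, against 21.3% and 21% (42.3% in all) of the 12246 genes with 50 reads or more. The groups' tables did not overlap in 12 of the 16 members (11 higher, 1 lower), against 47.1% of those genes (23.7% higher, 23.5% lower).

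**Figure D1:**
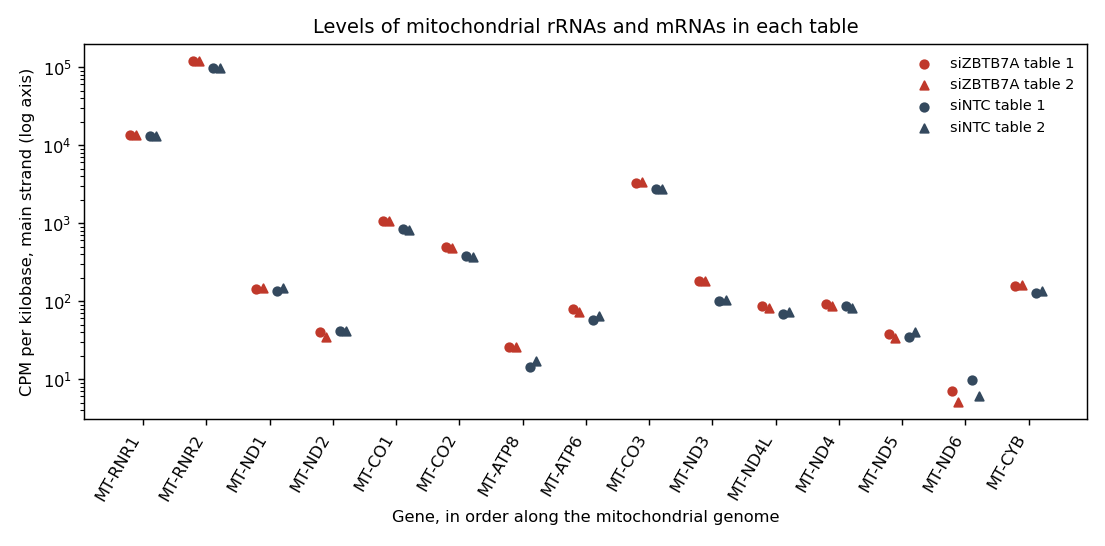
CPM per kilobase of gene (log axis) for the 2 rRNAs and 13 mRNAs in order along the mitochondrial genome, with each of the 4 tables as a point. Levels run from about 119679 CPM per kilobase for MT-RNR2 to about 6 for MT-ND6 in siZBTB7A, and the tables of a group lie close together except for MT-ND6.

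The rRNAs of the large and small mitochondrial ribosomal subunits differed from each other. MT-RNR2, the large subunit rRNA, had 1022740 and 1059811 reads in the siZBTB7A tables and 882794 and 911919 in the siNTC tables, or 186339 and 186813 CPM against 152000 and 151883 CPM. Its fold was 1.228 (1.226 to 1.230). MT-RNR1, the small subunit rRNA, had 70897 and 73237 reads in siZBTB7A and 72562 and 75029 in siNTC, or 12917 and 12909 CPM against 12494 and 12496 CPM, a fold of 1.033 (1.026 to 1.041). Both siZBTB7A tables lay above both siNTC tables for each rRNA, but MT-RNR1 was within 1.1-fold, and with plain totals of gene reads in place of TMM its fold was 1.008. The ratio of MT-RNR2 to MT-RNR1 reads, which no scaling affects, was 14.4 and 14.5 in siZBTB7A and 12.2 and 12.2 in siNTC. The ratio of the group values was 1.19 (1.18 to 1.20). The labels do not say whether rRNA was depleted, and how much of each rRNA the libraries kept cannot be told apart from its level in the cells.

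The mRNAs of complex IV, cytochrome c oxidase, had the most counted reads of the mitochondrial mRNAs and all 3 were higher in siZBTB7A. MT-CO1, the catalytic subunit with the oxygen-reducing centre, had 8997 and 9226 reads in siZBTB7A and 7503 and 7466 in siNTC, or 1639 and 1626 CPM against 1292 and 1243 CPM. MT-CO2, which takes electrons from cytochrome c, had 1829 and 1883 reads in siZBTB7A and 1499 and 1532 in siNTC. MT-CO3, a further core subunit, had 14119 and 14763 reads in siZBTB7A and 12630 and 13056 in siNTC. The groups did not overlap in CPM for any of these. The folds were 1.29 (1.26 to 1.32) for MT-CO1, 1.30 (1.24 to 1.36) for MT-CO2 and 1.19 (1.17 to 1.21) for MT-CO3. Between siZBTB7A and siNTC the ratio of MT-CO2 to MT-CO1 reads differed by a factor of 1.006 (0.954 to 1.06), whose interval includes 1, and that of MT-CO3 to MT-CO1 by 0.924 (0.899 to 0.949), whose interval does not.

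MT-CYB, which encodes cytochrome b and is the mitochondrially encoded subunit of complex III, had 990 and 1032 reads in siZBTB7A and 836 and 932 in siNTC. In CPM both siZBTB7A tables, at 180.4 and 181.9, lay above the siNTC tables, at 143.9 and 155.2. Its fold was 1.21 (1.14 to 1.29).

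Complex V is represented by MT-ATP6, the subunit that forms the proton path, and MT-ATP8, a small membrane subunit. Their reading frames overlap, so reads that touch the shared stretch overlap both genes and enter neither count. The last 60 bases of MT-ATP8 and the first 60 of MT-ATP6 are printed 5′ to 3′ from the GENCODE 29 transcripts (mitochondrial chromosome, GRCh38). The 46 shared bases are in capitals, and the loss to counting reaches beyond them, because reads that only run into them are lost too.
MT-ATP8 end: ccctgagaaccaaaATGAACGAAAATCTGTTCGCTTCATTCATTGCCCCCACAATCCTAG
MT-ATP6 start: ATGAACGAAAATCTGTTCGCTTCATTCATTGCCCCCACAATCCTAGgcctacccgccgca
MT-ATP6, of 681 bases, had 296 and 283 reads in siZBTB7A and 229 and 266 in siNTC, or 53.9 and 49.9 CPM against 39.4 and 44.3 CPM, a fold of 1.24 (1.096 to 1.40). MT-ATP8, of 207 bases, had 29 and 30 reads in siZBTB7A and 17 and 21 in siNTC, a fold of 1.64 (1.08 to 2.54). The groups did not overlap for either gene. MT-ATP8 was not called by edgeR, and its interval spans most of the range of folds seen among the mitochondrial mRNAs.

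Complex I, the NADH dehydrogenase, takes 7 of its core subunits from mitochondrial mRNAs, and these did not move as a block. MT-ND3 stood apart with 340 and 358 reads in siZBTB7A and 203 and 217 in siNTC, or 61.95 and 63.1 CPM against 34.95 and 36.14 CPM. Its fold of 1.76 (1.56 to 1.99) was the highest among the 16 members with enough reads. Without MT-ND3 the complex I mRNAs summed to 393.8 CPM in siZBTB7A and 388.4 CPM in siNTC, a fold of 1.01 (0.972 to 1.06). The reads of MT-ND3 per read of the other complex I mRNAs were 0.154 and 0.163 in siZBTB7A and 0.0916 and 0.0915 in siNTC, with a ratio of ratios of 1.74 (1.52 to 1.98). MT-ND3 was set apart by its fold in these same libraries, so values that set it apart or leave it out are description only. MT-ND3 has 346 bases and lies between MT-CO3 and MT-ND4L, parted from each by a tRNA gene.

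**Figure D2:**
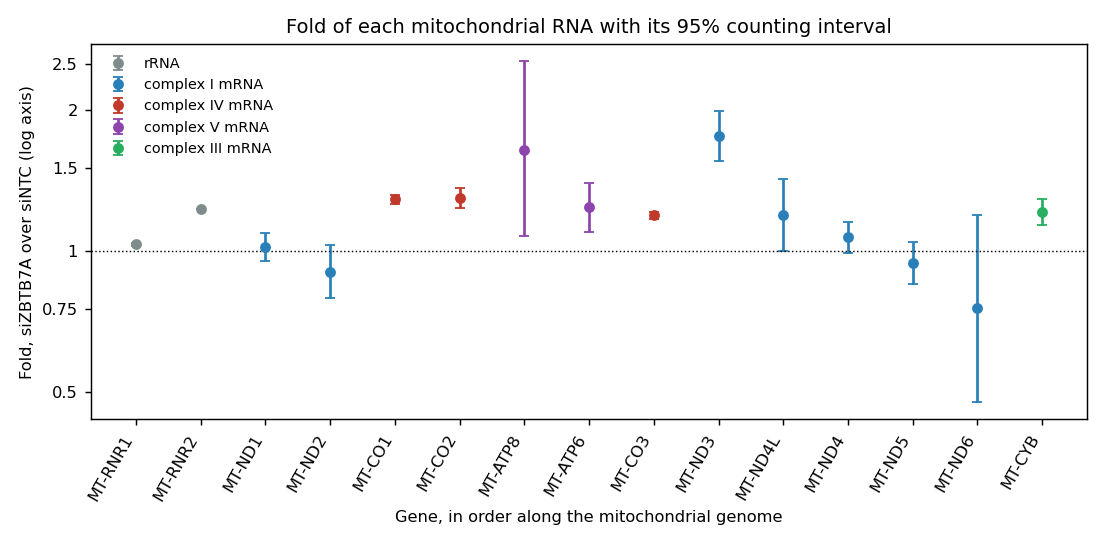
Fold of siZBTB7A over siNTC (log axis) for each rRNA and mRNA in genome order, with exact 95% counting intervals from the summed tables and colours by respiratory complex. MT-ND3 lies at 1.76 and the complex IV mRNAs at 1.19 to 1.30, while the intervals of MT-ND1, MT-ND2, MT-ND4L, MT-ND4, MT-ND5 and MT-ND6 include 1.

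Of the other complex I mRNAs, MT-ND1, MT-ND2, MT-ND4 and MT-ND5 had folds between 0.902 and 1.07. MT-ND1 had 743 and 808 reads in siZBTB7A and 754 and 857 in siNTC, a fold of 1.02 (0.9496 to 1.09) with overlapping groups. MT-ND4 had 697 and 685 reads in siZBTB7A and 696 and 672 in siNTC, a fold of 1.07 (0.991 to 1.153), and in CPM both siZBTB7A tables (127.0 and 120.7) lay above both siNTC tables (119.8 and 111.9). MT-ND5 had 375 and 341 reads in siZBTB7A and 366 and 439 in siNTC, a fold of 0.941 (0.850 to 1.04), again with overlapping groups. MT-ND2 lay the other way, with both siZBTB7A tables below both siNTC tables in CPM. It had 229 and 204 reads in siZBTB7A and 253 and 255 in siNTC, a fold of 0.902 (0.792 to 1.03). None of these 4 was called by edgeR.

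MT-ND4L and MT-ND4 lie on 1 mature mRNA and overlap by 7 bases, shown here in capitals at the end of the first and the start of the second, from the same GENCODE transcripts.
MT-ND4L end: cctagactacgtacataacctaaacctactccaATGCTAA
MT-ND4 start: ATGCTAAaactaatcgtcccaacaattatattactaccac
MT-ND4L had 139 and 139 reads in siZBTB7A and 117 and 130 in siNTC, a fold of 1.19 (0.9999 to 1.42). The number of MT-ND4 reads per MT-ND4L read was 5.01 and 4.93 in siZBTB7A and 5.95 and 5.17 in siNTC. The ratio of ratios, 0.898 (0.741 to 1.09), leaves the difference between these joined genes within counting error at this depth.

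MT-ND6 is the single mRNA with the light strand as template. It had 20 and 15 reads in siZBTB7A and 30 and 19 in siNTC, a fold of 0.756 (0.475 to 1.19), and the groups overlapped. A difference in MT-ND6 was not detectable at this depth.

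Set against each other within a library, complex IV reads per complex I read were 9.81 and 10.2 in siZBTB7A and 8.94 and 8.52 in siNTC. The ratio of ratios was 1.14 (1.098 to 1.19), and 1.21 (1.16 to 1.27) with MT-ND3 left out. By summed level the complexes had folds of 1.231 (1.215 to 1.247) for IV, 1.27 (1.13 to 1.42) for V, 1.21 (1.14 to 1.29) for III and 1.076 (1.035 to 1.119) for I.

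**Figure D3:**
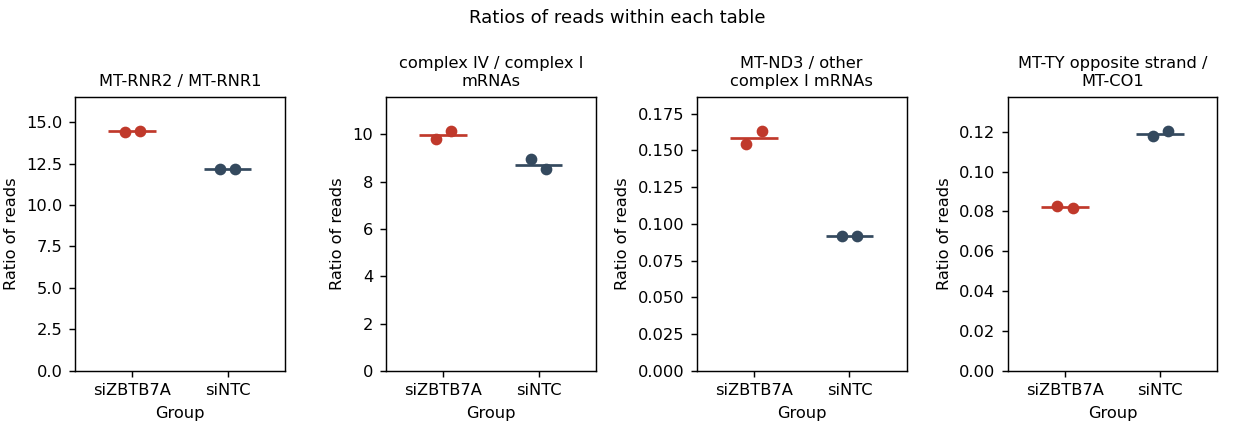
Ratios of reads within each table (points) and in the summed tables of each group (lines), on axes that start at 0. MT-RNR2 over MT-RNR1, complex IV over complex I and MT-ND3 over the other complex I mRNAs are higher in siZBTB7A, and opposite-strand MT-TY reads over MT-CO1 reads are lower.

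Per length, the order of levels was similar in both groups from the top down to MT-CO2 and changed below it. The level of MT-RNR2 was 119679 CPM per kilobase in siZBTB7A and 97460 in siNTC, and that of MT-RNR1 13536 and 13098. MT-CO3 followed at 3301 and 2774, MT-CO1 at 1059 and 821.8 and MT-CO2 at 486.2 and 375.2 CPM per kilobase. In siZBTB7A the next level was that of MT-ND3 at 180.7, above MT-CYB at 158.8 and MT-ND1 at 145.4. In siNTC MT-ND3, at 102.8, lay below both MT-ND1 at 142.7 and MT-CYB at 131.2, whose tables overlapped each other. MT-ND4, MT-ND4L and MT-ATP6 lay between 76.2 and 89.9 CPM per kilobase in siZBTB7A and between 61.5 and 84.1 in siNTC. MT-ND2 and MT-ND5 did not differ beyond the spread of their tables in siZBTB7A, at 37.2 and 35.4, and MT-ATP8 and MT-ND6 were lowest. The ends of neighbouring genes touch or nearly touch, and reads that run into a second gene on the same strand are not counted. Reads that fit a nuclear copy equally well are multi-mapping and are not counted either. The levels are therefore lower bounds, and their order is that of uniquely counted reads. How much each gene lost in these ways was not measured.

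The tRNAs were barely represented. All 22 together had 27 and 34 reads in siZBTB7A and 23 and 46 in siNTC, a fold of 0.936 (0.652 to 1.34). Without siNTC 2 the fold was 1.38 (0.842 to 2.34), so no direction was resolved. MT-TI, the isoleucine tRNA, had most, with 12 and 15 reads in siZBTB7A and 10 and 18 in siNTC, and MT-TL1, a leucine tRNA, had 10 and 9 against 3 and 8. Of the 22, 19 had fewer than 10 reads over the 4 tables, and 8 had none. Having none allows up to 0.269 CPM in siZBTB7A and 0.254 CPM in siNTC (3 reads a group). The tRNA genes are 59 to 75 bases long, and reads running into a same-strand neighbour enter no count. These bounds therefore hold for counted reads and not for the tRNAs in the cells.

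Reads on the strand opposite to a gene can come from RNA of the other template strand or from imperfect marking of the strand, and the part of each was not tested. The 3 tRNA genes with at least 50 such reads over the 4 tables all have the light strand as template, and most of their reads were of this kind. MT-TY, the tyrosine tRNA gene, had 746 and 756 opposite-strand reads in siZBTB7A and 882 and 899 in siNTC, while its own strand had 0 reads in siZBTB7A and 2 in siNTC. MT-TP, the proline tRNA gene, had 89 and 100 opposite-strand reads in siZBTB7A and 126 and 117 in siNTC. MT-TC, the cysteine tRNA gene, had 19 and 21 in siZBTB7A and 7 and 20 in siNTC. MT-TQ, the glutamine tRNA gene, which also has the light strand as template, had 6 and 5 in siZBTB7A and 5 and 8 in siNTC, and 2 reads in all on its own strand. Its unstranded count was 0 in every table, so all of its reads also overlapped MT-TI and are not separate from the MT-TI reads. In CPM the opposite-strand folds were 0.893 (0.833 to 0.956) for MT-TY, 0.823 (0.677 to 0.9995) for MT-TP and 1.57 (0.939 to 2.66) for MT-TC.

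The sequence of MT-TY and of its opposite strand is printed 5′ to 3′ from GENCODE 29, because this stretch holds more opposite-strand reads than any mitochondrial gene except MT-RNR2. The capital in MT-TY is the base it shares with MT-TC.
MT-TY gene: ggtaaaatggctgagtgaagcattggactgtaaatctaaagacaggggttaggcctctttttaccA
MT-TY opposite strand: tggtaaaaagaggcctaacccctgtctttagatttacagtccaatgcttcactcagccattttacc
The opposite strand of MT-TY runs toward MT-CO1, which starts 12 bases on in GENCODE 29. In every table the unstranded MT-TY count equalled the sum of its strands, so none of these reads also overlapped MT-CO1, whose main-strand level was higher in siZBTB7A. MT-TY opposite-strand reads per MT-CO1 read were 0.0829 and 0.0819 in siZBTB7A and 0.118 and 0.120 in siNTC, with a ratio of ratios of 0.693 (0.644 to 0.745). Opposite-strand reads of MT-TP per read of MT-CYB, 1 tRNA gene upstream, had a ratio of ratios of 0.680 (0.553 to 0.835).

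**Figure D4:**
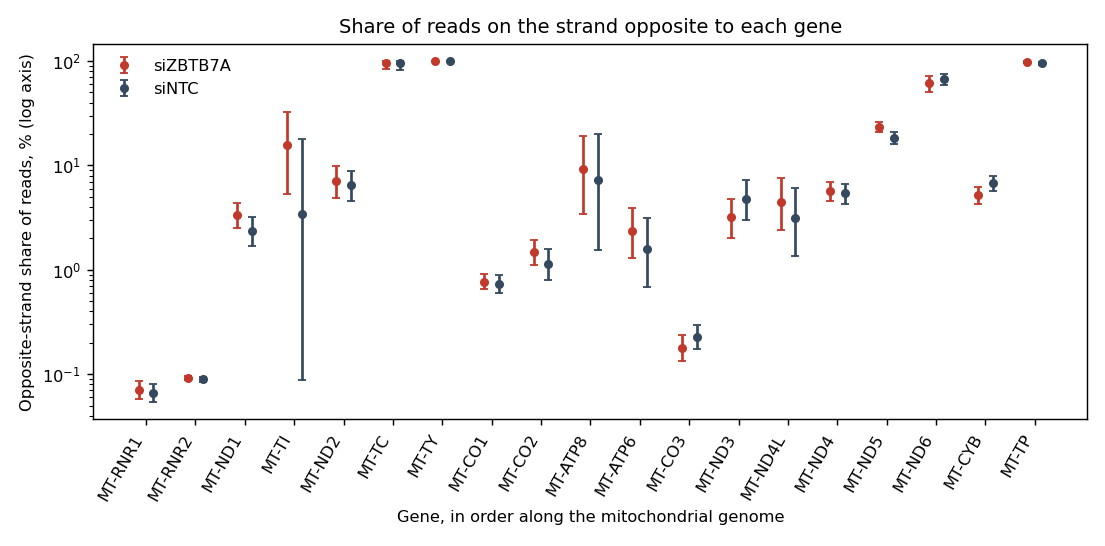
Share of a gene's reads that lay on its opposite strand (log axis) in the summed tables of each group, with exact 95% intervals, for members with enough reads. MT-TY, MT-TP and MT-TC lie at 95.2% or more, MT-ND6 at 61.1% or more, MT-ND5 at 23.4% in siZBTB7A and 18.5% in siNTC, and both rRNAs at 0.0924% or less.

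Among the mRNAs the opposite-strand share ran from 0.180% in siZBTB7A and 0.229% in siNTC for MT-CO3 to 61.1% (50.3 to 71.2) and 67.1% (59.0 to 74.6) for MT-ND6. Over all genes of the tables it was 3.77% and 3.78% in siZBTB7A and 3.86% in both siNTC tables. MT-ND5, whose end meets that of MT-ND6 on the other strand, had 110 and 109 opposite-strand reads in siZBTB7A and 90 and 93 in siNTC, a share of 23.4% (20.7 to 26.3) and 18.5% (16.2 to 21.1). MT-ND6 had 23 and 32 opposite-strand reads in siZBTB7A and 49 and 51 in siNTC, a fold of 0.582 (0.411 to 0.817), and the tables did not overlap. The remaining complex I genes, MT-CYB, MT-ATP6 and MT-ATP8 had shares between 1.59% and 9.23%, and MT-CO1 and MT-CO2 between 0.736% and 1.49%. The rRNAs had 0.0714% and 0.0924% in siZBTB7A and 0.0664% and 0.0895% in siNTC for MT-RNR1 and MT-RNR2. Opposite-strand MT-RNR2 reads numbered 958 and 967 in siZBTB7A and 804 and 804 in siNTC, and their fold of 1.27 (1.19 to 1.35) was close to that of the main strand.

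Nuclear genes that make or process mitochondrial RNA were called in few cases. The list drawn up for mitochondrial transcription also holds genes of mitochondrial DNA replication, such as POLG and TWNK. TFB1M is both on it and on the RNA processing list. Of its 20 tested genes 1 was higher, ESRRA, a nuclear receptor, at 1.193 (1.136 to 1.253). Another 1 was lower, GABPA, an ETS factor, at 0.796 (0.690 to 0.918), and the median fold was 1.093. POLRMT, the mitochondrial RNA polymerase, had 275 and 301 reads in siZBTB7A and 274 and 256 in siNTC, a fold of 1.150 (1.02 to 1.30), and TFAM, its transcription factor, stood at 1.04 (0.957 to 1.13). Neither was called. Among 38 RNA processing genes 1 was higher and 0 lower (median 1.035). It was FASTK, whose family acts on mitochondrial RNA and which is linked to the stability of MT-ND6 mRNA, at 1.20 (1.11 to 1.30). LRPPRC, which stabilises mitochondrial mRNAs, stood at 0.959 (0.921 to 0.998) and was not called. On the list of 7 genes drawn up for RNA decay, ENDOG, a mitochondrial nuclease, was higher at 1.31 (1.16 to 1.49), and the median was 1.025. ANGEL2, whose place on the decay list is uncertain, was lower at 0.798 (0.691 to 0.921).

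Nuclear partners of the same complexes were called higher in a few cases. Of the nuclear subunit genes tested, 2 of 36 were higher in complex I (median 1.034), 0 of 4 in complex II (median 0.966), 0 of 9 in complex III (median 1.034), 3 of 11 in complex IV (median 1.072) and 3 of 18 in complex V (median 1.046), and 0 in any were lower. The called genes were NDUFB3 at 1.23 (1.08 to 1.41) and NDUFB9 at 1.16 in complex I, and COX7C at 1.14 (1.06 to 1.24), NDUFA4 at 1.13 and COX6B1 at 1.115 in complex IV. In complex V they were ATP5F1C at 1.12, ATP5F1E at 1.09 and ATP5F1B at 1.05. Of 79 mitochondrial ribosomal protein genes 3 were higher and 0 lower (median 1.042), namely MRPL1 at 1.21 (1.07 to 1.37), MRPL57 at 1.21 and MRPS25 at 1.18. All these lists stand beside the shares of 2.25% higher and 2.72% lower and the median of 1.001 over all tested genes. These calls and folds set the same 2 libraries against each other, and the difference between the mitochondrial and nuclear lists was not tested.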

How the data were processed

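RNA-seq of VCaP cells was deposited by the authors as whole-number read counts per gene, not normalized, as STAR writes them, once without regard to strand and once for each strand. The submitters' processing notes list STAR 2.4.2a, hg19 and GRCh37. Which gene annotation they used was not given in the sources used here. In this counting mode a read that maps to several places, or overlaps more than 1 gene on the counted strand, enters no gene count.

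Genes were matched by Ensembl number to GENCODE 29, which is on GRCh38, so no coordinates are given. Lengths and sequences come from it, and 55698 of 60308 identifiers were named. The strand that held 24.9 to 25.5 times the gene reads of the other was taken as the main strand. The rows that name no gene held 50.8% to 51.2% of reads and were left out.

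The 37 members and the comparison lists were chosen with earlier results of these data known. The named genes are all members, the called list genes with the largest fold (up to 4 a list), POLRMT, TFAM, LRPPRC and genes that check the labels. Folds were taken between the summed tables of each group after TMM adjustment of their totals. Their 95% intervals are exact (Clopper-Pearson). Ratios of ratios have exact conditional intervals, or log-scale normal ones above 50000 reads. Intervals cover counting error only. The calls across all genes used edgeR 4.0.16 (robust quasi-likelihood, filterByExpr, group only) in R 4.3.3, adjusted p under 0.05 by Benjamini-Hochberg. Because each group counts as 1 library, they compare libraries and not conditions. Both computations were tested on simulated data. For edgeR these held read sampling error only, so that test does not bear on having 1 library a group. Alternatives were DESeq2 1.42.0, DESeq2 size factors, limma-voom (limma 3.58.1), other filters, unstranded counts, scaling without mitochondrial genes or by plain totals, a replicate block, leaving out each table and, added after the data were seen, a GC and length trend. Other work used Python 3.11.15, scipy 1.17.1 and pandas 2.3.3.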

Additional observations from a re-analysis of the deposited data

How the results depend on the processing

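With DESeq2, 89 genes were called in all (42 higher, 47 lower), 7 of them mitochondrial (MT-ATP6 was not among them). It gave no adjusted p for 8967 genes, and the cause of the lower count was not tested. Leaving out 1 table called 303 to 373 genes, 6 to 8 of them mitochondrial, from fewer reads. With plain totals the fold of the mRNAs was 1.185 and that of the rRNAs 1.183, and the median log2 fold of all tested genes was -0.035. The GC and length trend, chosen after the data were seen, gave 1.210 for the rRNAs. Leaving out 1 table gave 1.213 to 1.218 for the mRNAs, 1.212 to 1.215 for the rRNAs and 0.713 to 1.38 for the tRNAs. Of unstranded gene reads, mitochondrial genes took 20.69% in siZBTB7A and 17.49% in siNTC, and of all reads 9.87% and 8.40%. Leaving out 1 table gave shares of 20.20% to 20.24% in siZBTB7A and 17.09% in siNTC. Unstranded counts called 647 of 13168 tested genes (305 higher, 342 lower), with MT-ND6 and MT-TY lower besides the 8 higher members. Over the 4 tables MT-TY had 3283 reads on its opposite strand and 2 on its own, and MT-ND6 had 155 and 84. These 2 calls are therefore mostly of opposite-strand reads. The replicate block called 654 genes, 7 mitochondrial, without MT-RNR2. Same-numbered tables did not deviate together (correlation -0.014 over 9378 genes), so the numbers are not shown to pair the tables. Few counted reads limit the tRNAs, MT-ND6 and MT-ATP8. For the tRNAs and MT-ATP8 this is not depth alone, because reads running into a same-strand neighbour enter no count.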

Other observations

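Nuclear copies of mitochondrial genes held few uniquely mapped reads. Of 401 annotated copies, 29 had a read and 2 had at least 50, and all together had 261 reads in siZBTB7A and 241 in siNTC. MTRNR2L12, a copy of MT-RNR2, had 59 and 32 reads in siZBTB7A and 39 and 29 in siNTC, a fold of 1.42 (1.02 to 1.97). The groups overlapped, with the second siZBTB7A table below the first siNTC table, so the fold rests on the first siZBTB7A table. MTATP6P1, a copy of MT-ATP6, had 31 and 20 in siZBTB7A and 34 and 34 in siNTC, a fold of 0.794 (0.541 to 1.16). Reads that fit a mitochondrial gene and a copy equally well count as multi-mapping and are in neither value.

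A few reads lay across 2 genes of opposite strands, and each such read counts for 1 gene on the main strand and for the other on the opposite strand. There were 9 and 4 across MT-ND5 and MT-ND6 in siZBTB7A and 6 and 10 in siNTC. Across MT-TI and MT-TQ there were 8 and 5 in siZBTB7A and 5 and 8 in siNTC, so part of the MT-TI count is shared with the opposite strand of MT-TQ. Their sequences are printed 5′ to 3′ from GENCODE 29 with the 3 overlapping bases in capitals.
MT-TI gene: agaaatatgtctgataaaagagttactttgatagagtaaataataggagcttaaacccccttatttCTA
MT-TQ gene: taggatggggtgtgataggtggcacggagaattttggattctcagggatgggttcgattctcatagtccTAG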
